A study of Arabidopsis thaliana with 4 samples.

Results

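Salicylic acid and EDS1 pathway genes of Arabidopsis thaliana are described here in aerial organs of the otp90 knock-out and of the wild type Col-0. The 10 genes form a list of loci with known roles in this pathway, drawn up with earlier results of these data known, and all 10 were found among the 33602 gene models of the count tables. They are the signalling genes EDS1 (AT3G48090), PAD4 (AT3G52430) and SAG101 (AT5G14930), the synthesis and export genes ICS1 (AT1G74710) and EDS5 (AT4G39030), the regulators NPR1 (AT1G64280) and WRKY70 (AT3G56400), and the pathogenesis-related genes PR1 (AT2G14610), PR2 (AT3G57260) and PR5 (AT1G75040). The otp90 group held 2 libraries of the line SM_3_29659 and the Col-0 group 2 libraries of the wild type, all untreated, grown on soil at 18 to 21 °C and taken at Boyes stage 1.09. The mutant is a single line, so an effect of the knock-out cannot be told apart from other differences of that line. No label ties the 2 libraries of either genotype to different plants, and the p-values below therefore rest on a spread that may be technical. The number 1 or 2 in each title is called the replicate number below, and the labels do not say what it marks.

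Salicylic acid is the plant hormone best known for defence against pathogens that feed on living tissue. EDS1 forms complexes with either PAD4 or SAG101, and these carry signals from intracellular immune receptors to helper receptors of the ADR1 and NRG1 families. ICS1 makes isochorismate in plastids, EDS5 exports it, and the hormone made from it is sensed by NPR1, which acts with TGA factors on genes such as PR1.

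EDS1 has a neighbouring copy in Col-0, here called EDS1B (AT3G48080), and reads that aligned equally well in more than 1 place had been removed before counting. The stretch that holds the longest run shared by their coding sequences is shown. Both stretches are bases 408 to 527 of the coding sequence on chromosome 3 in the RefSeq annotation of TAIR10.1, and capitals mark the 18 of 120 bases that differ.
EDS1: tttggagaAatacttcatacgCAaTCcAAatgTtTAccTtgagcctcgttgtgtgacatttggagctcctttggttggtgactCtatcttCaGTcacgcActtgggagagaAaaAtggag
EDS1B: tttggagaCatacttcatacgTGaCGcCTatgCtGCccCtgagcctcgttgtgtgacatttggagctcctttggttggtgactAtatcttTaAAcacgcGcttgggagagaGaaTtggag
The coding sequences were 84.0% identical over 1859 aligned bases, and the longest identical run was 44 bases. No 50-base window was therefore shared at aligned coding positions. Of all 50-base windows within EDS1 exons, 0.977% occurred a further time in the genome, and no 100-base window did. Where these recurring windows lie was not examined. None of the 10 genes had a repeated 100-base window, and 7 had no repeated 50-base window. EDS1B itself had few counts, 11 and 1 for otp90 against 10 and 0 for Col-0 (replicate 1 first, as throughout).

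Counted reads ran from 1489112 to 2685718 per library, and 1 count was worth 0.401 to 0.812 CPM (counts scaled to library size), so the members were measured with few reads. They had from 53 counts (PR5) to 310 counts (PR2) over all 4 libraries. Rosette leaf markers summed to between 11390 and 20955 CPM per library, against 2.44 to 3.73 CPM for flower markers, 0 to 2.78 CPM for seed markers and 18.4 to 89.4 CPM for root markers. The highest root value, in otp90 replicate 2, was all PYK10. Its part in the results was not tested. Levels below are CPM scaled by the trimmed mean of M values (TMM), and in bulk tissue fewer expressing cells and less RNA per cell cannot be told apart.

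No member differed between otp90 and Col-0 by the test across all genes. Of the 10 members, 9 met the filter on low counts and were tested, and PR5 did not meet it. With edgeR's quasi-likelihood test, 0 of the 9 passed at an adjusted p under 0.05, where 0% of 11938 genes passed, and 0 of the 9 reached an unadjusted p under 0.05, where 1.41% of genes did. Neither DESeq2 nor limma voom nor edgeR's likelihood ratio test passed any member, with 0 at an unadjusted p under 0.05 each. The log2 fold change was negative in 6 of 9 members with a median of -0.21, beside 50.8% of genes and a median of -0.0097 over all genes tested. Only EDS1 and PAD4 had both otp90 libraries below both Col-0 libraries, a separation found in 13.5% of genes. No member had both above, which 12.4% of genes had, and 25.9% of genes separated in either direction. With 2 libraries per genotype the intervals were wide, so these values do not show that the genotypes are alike.

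**Figure D1:**
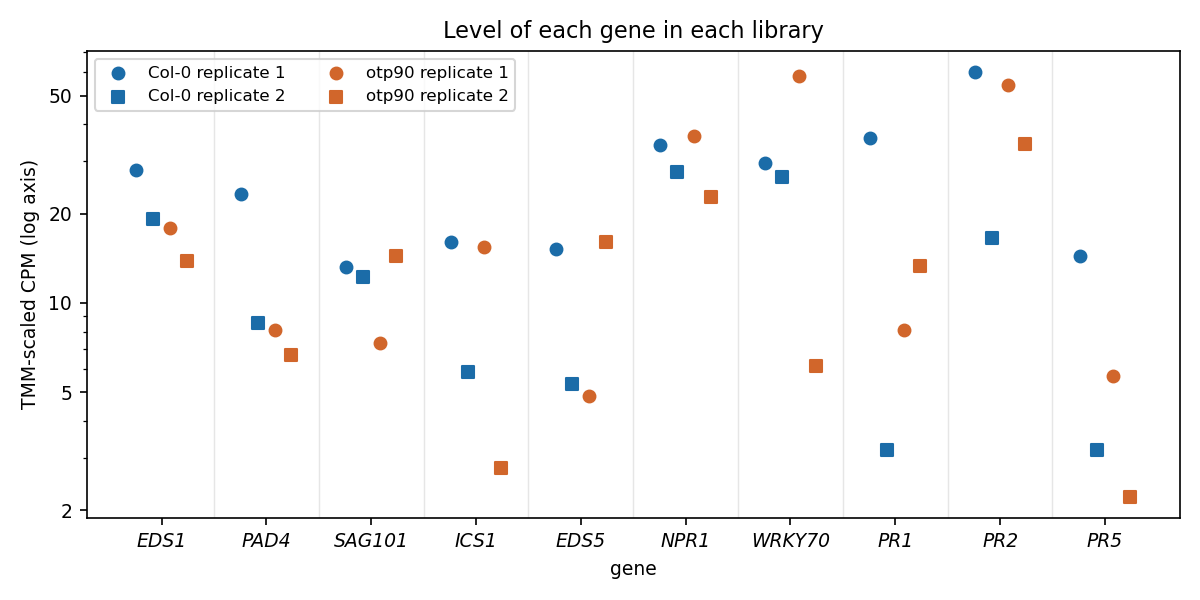
TMM-scaled CPM on a log axis for each of the 10 genes in each of the 4 libraries, with Col-0 in blue, otp90 in orange, replicate 1 as circles and replicate 2 as squares. EDS1 and PAD4 are the genes whose otp90 points both lie below their Col-0 points, and WRKY70 in otp90 and PR1 in Col-0 have their replicates far apart.

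Within the EDS1 node, EDS1 was at 17.9 and 13.9 CPM in otp90 replicates 1 and 2, and at 28.1 and 19.2 CPM in Col-0. EDS1, the lipase-like partner common to both complexes, was thus lowest in otp90 replicate 2 and highest in Col-0 replicate 1, and the genotypes did not overlap. Its Col-0 mean was 23.6 ± 6.28 CPM and its otp90 mean 15.9 ± 2.81 CPM (SD, n = 2 each), and the fitted log2 fold change, -0.58, had a 95% interval from -1.77 to 0.60. Without Col-0 replicate 1 it was -0.28. Such a fit, here and below, leaves 1 genotype with a lone library, so its value compares libraries and gives no independent support. PAD4, whose complex with EDS1 is best known for basal defence and ADR1 signalling, was at 8.12 and 6.66 CPM in otp90 and at 23.3 and 8.53 CPM in Col-0. Its genotypes did not overlap either, but Col-0 replicate 2 lay only just above the otp90 libraries. The log2 fold change of PAD4 was -1.12 (95% interval -2.72 to 0.49), and -0.21 without Col-0 replicate 1. SAG101, which pairs with EDS1 in signalling through NRG1, was at 7.31 and 14.4 CPM in otp90 and at 13.2 and 12.3 CPM in Col-0. Here otp90 held both the lowest and the highest value, and the log2 fold change was -0.21 (95% interval -1.65 to 1.23), with 0.18 without otp90 replicate 1 and -0.79 without otp90 replicate 2.

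In hormone synthesis, ICS1, the isochorismate synthase that makes most of the pathogen-induced hormone, was at 15.4 and 2.78 CPM in otp90 and at 16 and 5.86 CPM in Col-0. Both number 1 libraries were high and both number 2 libraries low, whatever the genotype. The log2 fold change between genotypes was -0.33 (95% interval -2.36 to 1.70). It was -1.97 without otp90 replicate 1, and it turned to 0.58 without Col-0 replicate 1. EDS5, the transporter that carries isochorismate out of the plastid, was at 4.87 and 16.1 CPM in otp90 and at 15.2 and 5.33 CPM in Col-0. Its replicates went opposite ways in the genotypes, so its Col-0 mean of 10.3 ± 7.0 CPM and otp90 mean of 10.5 ± 7.94 CPM (SD, n = 2 each) were nearly equal. The log2 fold change was 0.043 (95% interval -1.77 to 1.85), and ran from -1.08 without otp90 replicate 2 to 1.0 without Col-0 replicate 1.

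Among the regulators, NPR1, a receptor of the hormone and transcription cofactor, was at 36.5 and 22.8 CPM in otp90 and at 34.1 and 27.7 CPM in Col-0. It varied least in relation to its level, and its log2 fold change was -0.069 (95% interval -1.17 to 1.04). With otp90 replicate 2 left out it was 0.25, and with otp90 replicate 1 left out -0.44. WRKY70, a transcription factor that acts where salicylic acid and jasmonate responses meet, was at 58.4 and 6.11 CPM in otp90 and at 29.7 and 26.6 CPM in Col-0. The otp90 libraries enclosed both Col-0 libraries. Its log2 fold change of 0.17 had a 95% interval from -1.73 to 2.07 and was -2.19 without otp90 replicate 1. In TAIR10.1, NPR1 overlaps AT1G64270 and AT1G08667, and EDS5 overlaps AT4G39040. The sources used here do not give whether the counting read the strand, so reads of these genes may be shared.

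The PR genes encode secreted proteins that are classic markers of the hormone's action. PR1 was at 8.12 and 13.3 CPM in otp90 and at 36.1 and 3.20 CPM in Col-0, so the Col-0 libraries held both extremes. Its log2 fold change was -0.87 (95% interval -3.01 to 1.27), and it was 1.74 without Col-0 replicate 1. PR2, a beta-1,3-glucanase, was at 54.4 and 34.4 CPM in otp90 and at 60.1 and 16.5 CPM in Col-0. Again Col-0 held the highest and the lowest value, and the log2 fold change was 0.20 (95% interval -1.25 to 1.64). It turned to -0.44 without Col-0 replicate 2. Leaving out Col-0 replicate 1 instead gave 1.42. PR5, a thaumatin-like protein, had 7 and 4 counts in otp90 and 36 and 6 in Col-0, and did not meet the filter on low counts. Its counts were 5.68 and 2.22 CPM in otp90 and 14.4 and 3.20 CPM in Col-0, and only the first Col-0 library stood clear of the others.

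**Figure D2:**
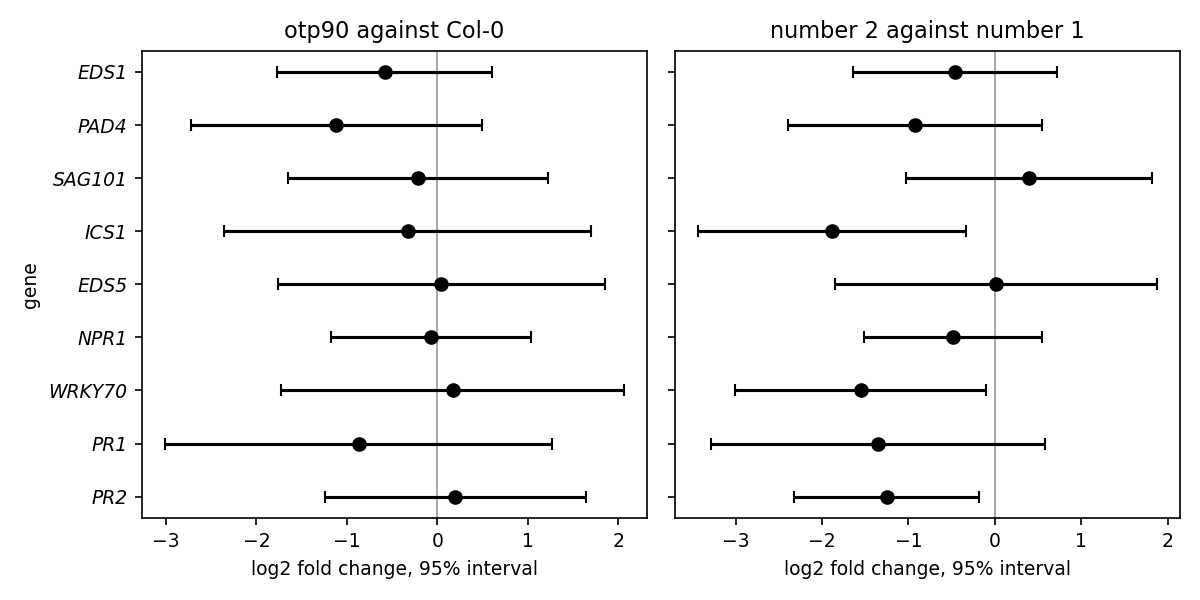
Log2 fold changes with 95% intervals from edgeR's quasi-likelihood fit for the 9 genes tested, for otp90 against Col-0 on the left and for replicate number 2 against number 1 on the right. All 9 intervals on the left hold 0, and on the right those of ICS1, WRKY70 and PR2 lie below 0 before adjustment for multiple tests.

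The difference between genotypes was read again between libraries of the same replicate number, as a ratio with a 95% exact binomial interval that covers counting error only. The interval lay off 1 for 4 of 9 members in number 1, beside 35.8% of genes, and for 4 of 9 in number 2, beside 35.2%. In number 1, PR1 was 0.225 times its Col-0 level (0.104 to 0.433), EDS5 0.32 times (0.11 to 0.762) and PAD4 0.349 times (0.159 to 0.689), while WRKY70 was at 1.97 times (1.40 to 2.76). In number 2, PR1 was 4.17 times its Col-0 level (1.66 to 12.5), EDS5 3.02 times (1.43 to 6.95) and PR2 2.08 times (1.33 to 3.32), while WRKY70 was at 0.229 times (0.108 to 0.446). PR1, EDS5 and WRKY70 thus lay on opposite sides of equality in the numbers. Such a turn, with both intervals free of 1, was found in 3 of 9 members and in 9.88% of genes. EDS1 was below its Col-0 level in both, at 0.636 times (0.375 to 1.04) and 0.724 times (0.416 to 1.24), and so was PAD4, at 0.781 times in number 2 (0.337 to 1.76). For both genes this direction follows from the separation of their libraries given above and adds nothing to it. PR5, which was not tested across genes, was at 0.394 times in number 1 (0.148 to 0.897) and 0.695 times in number 2 (0.144 to 2.93).

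**Figure D3:**
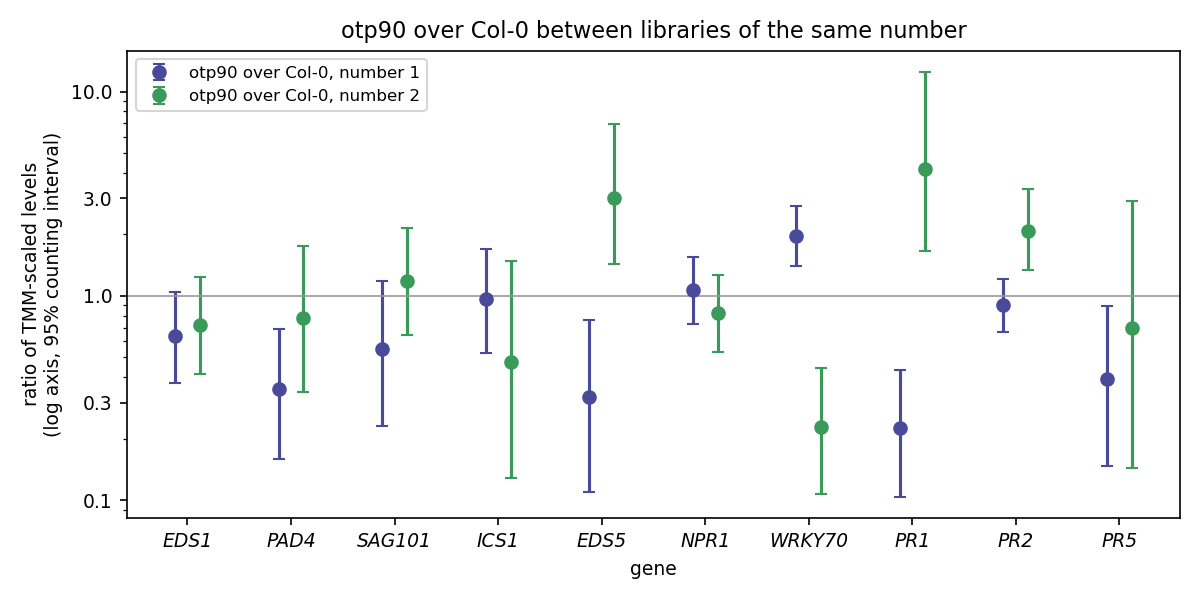
Ratio of otp90 to Col-0 on a log axis between the 2 libraries of number 1 (violet) and of number 2 (green) for each of the 10 genes, with 95% counting intervals. PR1 and EDS5 are below 1 in number 1 and above it in number 2, WRKY70 is the reverse, and EDS1 and PAD4 are below 1 in both.

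The libraries differed by replicate number as well, and this was tested with genotype as a term. Of the 9 members tested, 7 had negative log2 fold changes in number 2, with a median of -0.92 beside 48.4% of genes negative and a median of 0.025 over all genes tested. None of the 9 passed at an adjusted p under 0.05, where 0.804% of genes passed. At an unadjusted p under 0.05 there were 3 members by edgeR's quasi-likelihood test, all lower, where 8.76% of genes reached it in either direction and 5.08% were lower. DESeq2, the likelihood ratio test and limma voom passed 0 members each, with 1, 3 and 3 at an unadjusted p under 0.05.

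These 3 genes were ICS1 at -1.89 (SE 0.73, adjusted p = 0.397 by edgeR), WRKY70 at -1.55 (SE 0.68, adjusted p = 0.504) and PR2 at -1.25 (SE 0.50, adjusted p = 0.429). ICS1, NPR1, PR2 and WRKY70 had both number 2 libraries below both number 1 libraries, a separation in this direction found in 20.5% of genes. Between libraries of 1 genotype, the counting interval lay off 1 for 5 of 9 members in otp90, beside 37.9% of genes, and for 5 of 9 in Col-0, beside 47.6%. Between numbers, ICS1 was 5.55 times higher in number 1 of otp90 (2.01 to 19.0) and 2.73 times higher in number 1 of Col-0 (1.38 to 5.91). PR2 was 1.58 times higher in number 1 of otp90 (1.1 to 2.27) and 3.64 times higher in Col-0 (2.46 to 5.55). These genes were thus lower in number 2 of both genotypes beyond counting error, as were 7.32% of genes. EDS5 moved opposite ways in the genotypes beyond counting error (1 of 9, beside 8.05% of genes). WRKY70 was 9.57 times higher in number 1 of otp90 (5.04 to 20.0) but only 1.11 times in Col-0 (0.767 to 1.63). PR1 was 11.3 times higher in number 1 of Col-0 (4.99 to 31.6), and in otp90 it was 0.609 times (0.26 to 1.32). With 1 library and the genotype term left out, 1 number is a lone library, whose spread is assumed to be like that of the other number. Such fits compare libraries and give no independent support. Without otp90 replicate 1, number 1 is Col-0 replicate 1 alone, the library where PR1 was highest, and PR1 was at -2.12 (adjusted p = 0.0265 by edgeR). Without Col-0 replicate 1, PR1 was at 0.020. WRKY70 was at -1.83 (adjusted p = 0.0495 by edgeR) without Col-0 replicate 1 and at -2.82 (0.0288) without Col-0 replicate 2. It was at -0.85 (0.598) without otp90 replicate 1 and at -0.73 (0.802) without otp90 replicate 2. PR2 was at -0.73 without Col-0 replicate 2. SAG101 was the member with the highest value, 0.39 (SE 0.67). EDS5, at 0.012 (SE 0.87), turned negative (-0.011) when libraries were scaled on nuclear genes.

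Per kilobase of gene model, PR2 had the highest mean level over the 4 libraries, 33.1 ± 15.9 TMM-scaled CPM per kilobase (SD, n = 4). WRKY70 followed at 27.2 ± 19.4, PR1 at 20.0 ± 19.1, NPR1 at 12 ± 2.47 and EDS1 at 9.23 ± 2.80 CPM per kilobase. The other 5 members lay close together, with PR5 at 6.51 ± 5.67, SAG101 at 6.17 ± 1.64, PAD4 at 6.02 ± 4.03, EDS5 at 5.11 ± 3.01 and ICS1 at 4.73 ± 3.17 CPM per kilobase. The ranges of every pair of neighbours in this order overlapped, and NPR1 over EDS1 was the only step kept in all 4 libraries. Among the genes tested, whose median was 10.3 CPM per kilobase, PR2 stood at percentile 82.4, NPR1 at 56, PAD4 at 28 and ICS1 at 18.3. The secreted end products were not uniformly above the signalling genes, since PR5 lay below EDS1 on this scale.

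**Figure D4:**
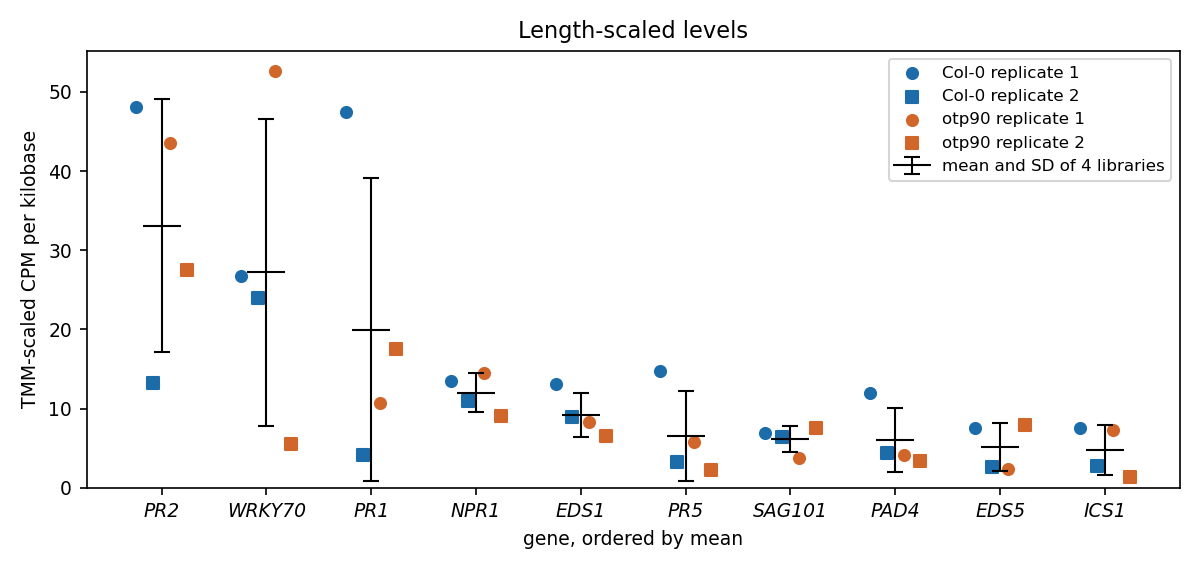
TMM-scaled CPM per kilobase of gene model for the 10 genes in each library (colours and symbols by genotype and replicate), ordered by mean, with black bars for the mean and SD of 4 libraries. PR2, WRKY70 and PR1 have the highest means and the widest spread, and NPR1 and SAG101 vary little.

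Of the 10 members, 6 had their highest level in Col-0 replicate 1, a pattern noticed after the values were seen. These were EDS1, PAD4, ICS1, PR1, PR2 and PR5. Among the members tested it was 5 of 9, beside 25.7% of all genes tested. Col-0 replicate 2 was the highest library for none of the 9, beside 25.1% of genes. EDS1, PAD4, ICS1, NPR1 and WRKY70 were lowest in otp90 replicate 2, 5 of 9 beside 24.4% of genes. PBS3, the enzyme that conjugates isochorismate to glutamate, and DMR6, an oxygenase that inactivates the hormone, were not tested and were chosen here after their values were seen. PBS3 was at 10.8 CPM in Col-0 replicate 1 and at 0.533 to 2.78 CPM in the other libraries, and DMR6 at 19.6 CPM and 2.78 to 5.68 CPM. Over the wider pathway this did not hold, since 10 of 38 tested genes of the pathway lists (26.3%) were highest in that library.

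The members did not all share a profile across libraries. Pearson's r of log2 CPM was taken over the 4 libraries, which share depth and replicate number. It ranged from -0.79 (SAG101 with WRKY70) to 0.99 (ICS1 with NPR1) over 36 pairs, with a median of 0.37. Of these pairs, 28 were above 0 and 8 below, and pairs of other genes were not set beside them. EDS1 and PAD4 had an r of 0.95, while SAG101 had an r of 0.046 with EDS1 and 0.22 with PAD4. EDS5 was nearest to PR1 (r = 0.80) and SAG101 (r = 0.76), and had an r of -0.28 with ICS1. EDS1 lay closest to the median profile of the members, at a Euclidean distance of 0.296 in centred log2 CPM, and WRKY70 farthest, at 2.04. The genes outside the list nearest to that median profile, of 8630 with a mean of at least 10 CPM, were AT5G66562 (0.0373), the receptor kinase gene BIR1 (0.0773), CGL1 (0.0842), AT1G20920 (0.0843) and AT1G12120 (0.0998). BIR1, a negative regulator of immunity, was at 36.5 and 30.0 CPM in otp90 and at 64.5 and 35.2 CPM in Col-0. Over the genes searched the median distance was 1.13.

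The wider pathway was followed in 8 lists of 67 genes, of which 38 were tested. Between genotypes 0 of these passed, with 22 positive and 16 negative log2 fold changes and a median of 0.12. At an unadjusted p under 0.05 there were 3, all higher in otp90, where 0.637% of genes were higher. TGA5, a bZIP factor that binds NPR1, was at 8.93 and 11.1 CPM in otp90 and at 1.60 and 2.66 CPM in Col-0. Both otp90 libraries lay above both Col-0 libraries, on 40 counts in all, and the log2 fold change was 2.22 (SE 0.81, adjusted p = 0.9998 by edgeR). SARD4, which acts in pipecolic acid synthesis, was at 9.74 and 18.3 CPM in otp90 and at 5.21 and 3.20 CPM in Col-0, which the fit put at 1.72 on the log2 scale (SE 0.71). PCC1, a small protein induced by pathogens, was at 42.2 and 64.4 CPM in otp90 and at 10.4 and 30.4 CPM in Col-0, which the fit put at 1.40 on the log2 scale (SE 0.60). Leaving out Col-0 replicate 1 gave 0.81, and leaving out Col-0 replicate 2 gave 2.35. Of its 50-base windows 38.2% recur in the genome, so its counts are uncertain.

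By list, 8 of 10 genes for the EDS1 copy, helper receptors and sensor receptors were tested, with 3 positive and 5 negative log2 fold changes between genotypes, from -0.27 to 0.69 (the sensor receptor gene RPS4, SE 0.60). Of the synthesis genes 7 of 10 were tested, 3 positive and 4 negative. PAL3, a minor phenylalanine ammonia-lyase, was at 1.02 (SE 0.48), and CAMTA3, a repressor of the EDS1 and CBP60g genes, at -0.54 (SE 0.51). Of the NPR receptors and partners 8 of 12 were tested, and 6 were positive. Among other genes that respond to the hormone, 5 of 8 were tested and 4 were positive. The exception was NUDT6, a nudix hydrolase that responds to EDS1 signalling, at -1.92 (SE 0.95), while ACD6, an ankyrin protein that promotes hormone accumulation, was at 0.86 (SE 0.54). None of these passed.

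By replicate number the wider lists had 2 calls, both WRKY factors of early defence responses and both lower in number 2, where 0.771% of all genes tested were called lower. WRKY40 was at 19.5 and 0.555 CPM in otp90 and at 14.0 and 0 CPM in Col-0, which the fit put at -5.67 on the log2 scale (SE 1.1, adjusted p = 0.0213 by edgeR). WRKY53 was at 17.9 and 1.67 CPM in otp90 and at 26.5 and 1.60 CPM in Col-0, which the fit put at -3.70 on the log2 scale (SE 0.78, adjusted p = 0.0369). Both were low in each number 2 library, with 1 and 0 counts for WRKY40 and 3 and 3 for WRKY53 (otp90 first). The sizes of these changes are therefore uncertain. With 1 library left out, WRKY40 ran from -7.97 without otp90 replicate 2 to -4.74 without Col-0 replicate 2, and WRKY53 from -3.97 to -3.39. The -7.97 rests on 0 counts in number 2 and is not a measured size. Neither passed by limma voom (adjusted p = 0.116 and 0.337), and WRKY53 did not pass with scaling on nuclear genes (0.0598). Of the 9 genes in the WRKY list, 5 were tested and all 5 had negative values in number 2, beside 48.4% of genes. Their median was -2.38. WRKY40 overlaps AT1G80850 and WRKY53 overlaps AT4G23800 in TAIR10.1. Of the other list genes named in these results, EDS1B, ADR1-L1, ICS2, SARD1, CAMTA3, UGT74F2, WRKY33 and SARD4 also overlap annotated genes.

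Of the 38 list genes tested, 9 were lower and 1 was higher in number 2 at an unadjusted p under 0.05 by edgeR. Among all genes tested 5.08% were lower, and 8.76% reached it in either direction. These list genes include WRKY40 and WRKY53, and the others, named next, did not pass. CBP60g and SARD1, the related factors that switch on ICS1, were at -3.30 (SE 0.92) and -2.65 (SE 0.78), with CBP60g at 12.2 and 3.89 CPM in otp90 and at 34.1 and 0.533 CPM in Col-0. The helper receptor genes ADR1-L2 and ADR1-L1 were at -1.67 (SE 0.48) and -1.22 (SE 0.47), the glucosyltransferase gene UGT74F2 at -3.15 (SE 0.81), WRKY33 at -2.38 (SE 0.76) and AIG1 at -3.54 (SE 1.16). In the other direction PAL1, a phenylalanine ammonia-lyase of the alternative route to the hormone, was at 1.32 (SE 0.44). It was at 97.4 and 209.9 CPM in otp90 and at 60.9 and 176 CPM in Col-0, higher in number 2 of both genotypes. With otp90 replicate 1 and the genotype term left out, number 1 is the lone Col-0 replicate 1, its spread is assumed from number 2, and 5 of these genes came under an adjusted p of 0.05 by edgeR against that library. They were CBP60g (5.17e-05), ADR1-L2 (0.00542), PAL1 (0.0185), UGT74F2 (0.0307) and SARD1 (0.0328). In fits of the same kind CBP60g did so without otp90 replicate 2 (0.00987), as did UGT74F2 with the first Col-0 library left out (0.0477). Over the 4 fits that each leave out 1 library, the log2 fold change of AIG1 ran from -7.05 without otp90 replicate 2 to -2.34 without Col-0 replicate 2. AIG1 had 13 and 3 counts in otp90 and 18 and 0 in Col-0. Its -7.05 thus rests on 0 counts in number 2 and is not a measured size. The log2 fold change of CBP60g ran from -5.33 without otp90 replicate 2 to -2.43 without Col-0 replicate 1.

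**Figure D5:**
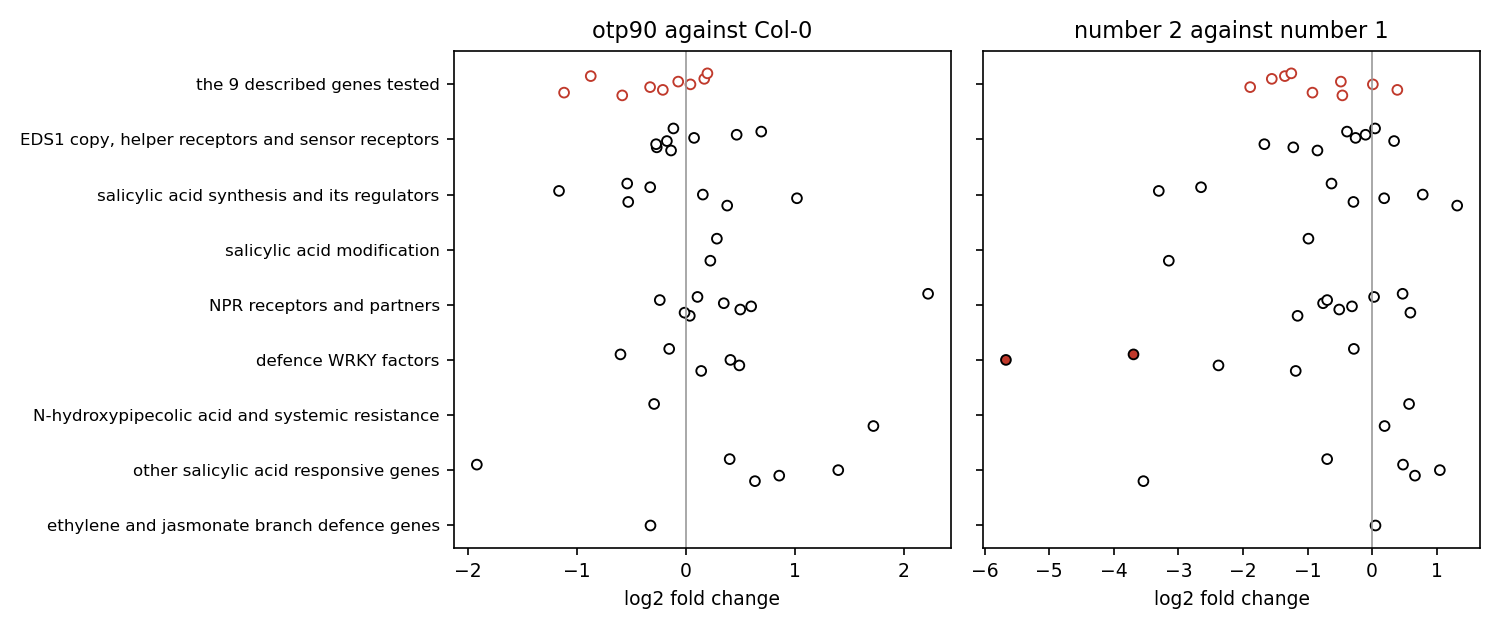
Log2 fold changes of the 9 described genes tested (red outlines) and of 38 tested genes in 8 pathway lists (black outlines), for otp90 against Col-0 on the left and number 2 against number 1 on the right, with genes at an adjusted p under 0.05 filled. The filled points are WRKY40 and WRKY53, both lower in number 2, and no point is filled on the left.

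Some genes of the lists did not meet the filter on low counts. The ICS1 copy ICS2 had 0 and 3 counts in otp90 and 2 and 10 in Col-0, and the PR2 neighbours BG1 and BG3 had 3 and 39 counts over all libraries. NIMIN1 had no count, where 3 counts would be 1.2 to 2.44 CPM per library. Of the ethylene and jasmonate branch of defence only PR4 of 6 genes was tested, with a log2 fold change of -0.33 (SE 0.46) between genotypes and 0.042 (SE 0.46) between numbers.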

How the data were processed

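RNA of aerial organs was depleted of rRNA and sequenced single-end on an Ion Proton from stranded libraries, per the labels' protocols. Per the file headers, the authors counted reads with sam2pkm after dropping reads with tied best alignments, and deposited raw counts for each model. That removal took 79.9% to 87.0% of mapped reads. TAIR10 is the build in the submitters' processing notes, and aligner and read length are not given in the sources used here. Gene names came from TAIR10.1, which matched 32835 of 33602 gene models by locus. Since the builds differ in name, no genome coordinates are given. Of the 10 members, 1 has the same transcript length in both. Recurring windows were counted within single exons of the transcript with the longest coding sequence, on both strands.

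Tests used edgeR 4.0.16 under R 4.3.3. Without the 15 rRNA models, filterByExpr kept 11938 genes, and TMM (trimmed mean of M values) scaled the libraries. Genotypes were compared with no replicate block by the quasi-likelihood test (two-sided), and replicate numbers likewise with genotype as a term. Benjamini-Hochberg adjustment ran over all genes tested. Standard errors came from the fold change and the F statistic. Alternatives were DESeq2 1.42.0, limma voom (limma 3.58.1), the likelihood ratio test, other scalings, no filter, rRNA kept, a replicate block and leaving out each library with the same genes tested. The fits were also run on simulated data, whose outcome is not given here. Replicates differed beyond counting noise, with a chi-square of 14.4 (otp90) and 23.7 (Col-0) for each degree of freedom, and were kept as separate libraries.

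The members, lists and tests were chosen with earlier results of these data known. The rule for named genes takes all members, the 3 genes of each list with the smallest p in each comparison (of which the text gives those at an unadjusted p under 0.05 and a few others), the copies EDS1B, ICS2, BG1 and BG3, and the 5 genes nearest to the members' median profile. PBS3, DMR6 and NIMIN1 were picked once values were known. The targeted gene is not analysed here, and so does not check the labels.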

Additional observations from a re-analysis of the deposited data

Results flagged for a closer look

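In 3 members the otp90 to Col-0 ratio went opposite ways in replicate numbers 1 and 2, with each counting interval free of 1. The difference of the log2 ratios, number 2 minus number 1, was 4.21 for PR1, 3.24 for EDS5 and -3.10 for WRKY70. With 1 library per genotype and number the difference itself was not tested. The same turn was found in 9.88% of genes tested.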

How the results depend on the processing

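Between genotypes 0 genes and 0 members were called in every alternative run, including those without 1 library, which kept the same genes in the test. With the replicate number as a block 0 genes passed, and 257 rather than 168 had an unadjusted p under 0.05. Over genes, the differences between numbers in otp90 and in Col-0 had a correlation of 0.22, but with 2 pairs the libraries share only a number. WRKY70 turned negative between genotypes with the block (-0.39) and with limma voom (-0.74). With 1 library left out, 1 genotype is a lone library. The genotype log2 fold changes then ranged from -2.19 to 1.06 in WRKY70, -1.73 to 1.74 in PR1 and -1.08 to 1.0 in EDS5. They ranged from -1.97 to 0.58 in ICS1, -0.44 to 0.25 in NPR1, -0.44 to 1.42 in PR2 and -0.79 to 0.18 in SAG101. EDS1 (-0.83 to -0.28) and PAD4 (-1.65 to -0.21) remained negative. Their otp90 libraries both lay below both Col-0 libraries, as in 13.5% of genes, so the kept sign is no further support.

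Between numbers 96 genes were called. The count was 253 by the likelihood ratio test, 214 without a filter on low counts, and, with the genotype term left out, 556 or 134 with replicate 1 or 2 of otp90 left out and 221 or 157 with replicate 1 or 2 of Col-0 left out. In these 4 fits 0 to 1 members were called. EDS5 between numbers was -0.17 by limma voom, -0.011 with scaling on nuclear genes, -0.51 without otp90 replicate 1, and from -1.0 to 1.12 over the 4 fits, where PR1 ranged from -2.84 to 0.020. In the order of levels per kilobase, 2 to 6 members changed place with 1 library left out and 0 with DESeq2 size factors. For values not named here the direction and the side of the threshold remained, though sizes moved, apart from the calls given in the results and those of CBP60g, SARD1, UGT74F2 and AIG1, called by the likelihood ratio test, and CBP60g and UGT74F2 without a filter. The cause of these changes was not tested. Low counts limit the members, the least covered being PR5 with 53 counts.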
